A study of Mus musculus with 6 samples.

Results

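A set of 35 genes of the lysosome was followed in the livers of C57BL/6 mice on a high fat diet, with and without an oral inhibitor of thrombin. The genes were chosen by name, as hydrolases, membrane proteins and their main regulator, with earlier results of these data known. All 35 of the 35 listed were found among the 23291 gene symbols of the deposited data. The study compared 2 groups of livers. Mice of the diet group ate a high fat (Western) diet for 3 months. Mice of the dabigatran group ate it for the same time with dabigatran etexilate, an oral prodrug of the thrombin inhibitor dabigatran, mixed in at 10 mg per gram. The labels give no age, sex or genetic change, and all animals share the strain and the fatty diet, so no group on ordinary chow is part of the comparison. RNA came from pieces of whole frozen liver.

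Lysosomes are acidic compartments in which proteins, complex lipids, glycogen and glycan chains are broken down and their building blocks returned to the cell. In liver they also take apart lipoproteins brought in by endocytosis and, through autophagy, lipid droplets and worn organelles. The transcription factor TFEB switches on many lysosomal genes together by binding an E-box called the CLEAR element near their start sites, and the kinase mTORC1 on the lysosomal surface keeps TFEB in the cytoplasm when nutrients are plentiful.

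Dabigatran replicates 0 and 1 came with the same values for each of the 23291 genes, and both tables carry the replicate number 1 inside, so they count as 1 library. The comparison therefore rests on 3 diet libraries (replicates 0, 1 and 2) and 2 dabigatran libraries (replicates 1 and 2). Values are FPKM, a fragment count divided by gene length and by the size of the library, which allows levels of different genes to be compared per length. Relative to diet replicate 0, the other libraries held 0.761 to 0.967 of its depth. The libraries did not sort wholly by group. Across genes, dabigatran replicate 1 had a correlation of 0.955 with diet replicate 1 and 0.949 with dabigatran replicate 2. Diet replicates 0 and 2 were the closest pair (0.974). Dabigatran replicate 2 lay farthest from the diet libraries (0.913 to 0.930). All 12 hepatocyte markers checked were above 1 FPKM in every library, with albumin (Alb) at 18532 FPKM or more, which fits the labelled tissue. None of the 11 lymphocyte markers found passed the filter for testing. In bulk liver, fewer cells of a type and less RNA per cell cannot be told apart.

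The CLEAR element has at its centre the E-box core CACGTG, which reads the same on both strands, and TCACGTGA is its longer form. RefSeq promoter windows (build GRCm38.p6, 250 bases before to 50 after each start site) were at hand for 31 of the 35 genes, and not for Npc1, Asah1, Ctsb and Ctsh. The core lay in the windows of 11 of the 31 genes (35.5%), against 8.09% of 27025 genes with a window and 12.3% of the 7477 of them that were tested for expression. The longer form, each match of which also counts as a core, lay in 5 of the 31 (16.1%), against 1.12% and 2.33%. The 11 genes were Mcoln1, Lamp1, Cln3, Ctsa, Ctsd, Ctsl, Gaa, Gla, Glb1, Naglu and Sgsh. The stretches below, 5′ to 3′ on the strand of the gene and with the core or longer form in capitals, show the 3 genes with a core and an unadjusted p under 0.05 (Lamp1, Ctsl and Gaa) and the genes with the longer form (for Ctsa and Gla 1 of 2 matches).
Lamp1, chr8:13159092-13159159, plus strand: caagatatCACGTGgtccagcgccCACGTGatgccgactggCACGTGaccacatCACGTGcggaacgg
Ctsl, chr13:64370743-64370764, minus strand: ttagaagcCACGTGctgatcta
Gaa, chr11:119267815-119267836, plus strand: tgtgcgatCACGTGtttgactc
Mcoln1, chr8:3500466-3500487, plus strand: gccccgcTCACGTGAccgcggc
Ctsd, chr7:142387912-142387933, minus strand: ccgcgtcTCACGTGAcccgttg
Cln3, chr7:126583344-126583365, minus strand: ggtactgTCACGTGAcccccaa
Ctsa, chr2:164833753-164833774, plus strand: caaactgTCACGTGAtgcagat
Gla, chrX:134601186-134601207, minus strand: atctcggTCACGTGAgcaactc

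The Lamp1 window held 4 cores within 68 bases, all before the start site, and Ctsl held 1, near the far end of its window. A match is a run of letters and not a measured binding site, and a window without one says nothing about binding elsewhere. Genes with the core did not share a direction. Of the 11, 6 had a negative log2 difference and 5 a positive one, with a median of -0.04 and a range from -0.55 for Lamp1 to 1.11 for Ctsl. Of the 20 genes with a window and no core, 14 were negative and 6 positive, with a median of -0.26. An unadjusted p under 0.05 by limma was found for 3 of the 11 with the core and 4 of the 20 without. Among all tested genes it was 16.0%. A link between the core and the difference was not tested.

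**Figure D1:**
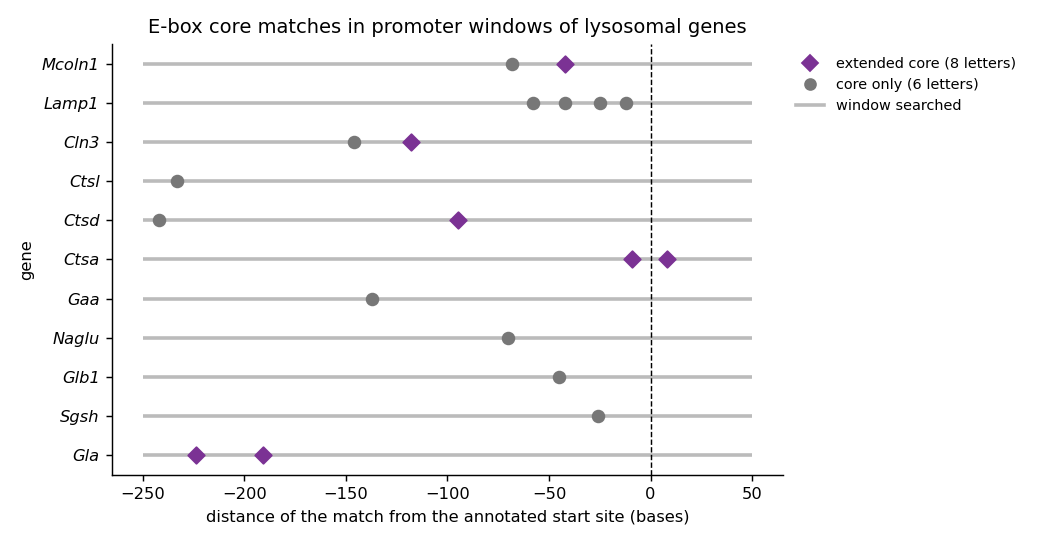
Matches to the E-box core (circles) and its longer form (diamonds) in the promoter windows of the 11 lysosomal genes that hold one, by distance in bases from the annotated start site (dashed line), with the window searched as a grey bar. The 4 matches of Lamp1 lie close together before the start site.

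None of the 35 passed limma's test at an adjusted p of 0.05, in either direction, where 0.429% of the 10247 genes tested passed (13 higher and 31 lower). At an unadjusted p under 0.05, 3 of the 35 were higher and 4 lower (20% of them), beside 16.0% of all tested genes. The libraries of the groups did not overlap for 13 of the 35 (37.1%), 5 higher and 8 lower with dabigatran, beside 34.4% of all tested genes. These shares lie near those of the whole table, so the counts set nothing about the 35 apart. The count of 0 called genes depended on the libraries: it was 1 (Grn) without diet replicate 1 and 4 (Grn and Ctsl higher, Lipa and Ctsc lower) without dabigatran replicate 1, a fit with a lone dabigatran library that is assumed to vary like the diet group.

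More of the genes leaned down than up. The log2 difference was negative in 23 of the 35 (65.7%) and in 48.1% of all tested genes, and its median was -0.21 for the 35 and 0.02 for all tested genes. On the log2 scale the median gene of the 35 lay 0.04, -0.04 and 0.04 from the diet mean in diet replicates 0, 1 and 2, and -0.12 and -0.22 in dabigatran replicates 1 and 2. Every dabigatran library was thus below every diet library on this measure. For dabigatran replicate 1 the margin was about the size of the spread among the diet libraries. The diet libraries set the reference here, so their values lie around 0 by construction. The summed level, in which abundant genes weigh most, overlapped. The 35 genes added up to 1955, 1937 and 2054 FPKM in the diet libraries and 1937 and 2079 in the dabigatran libraries.

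**Figure D2:**
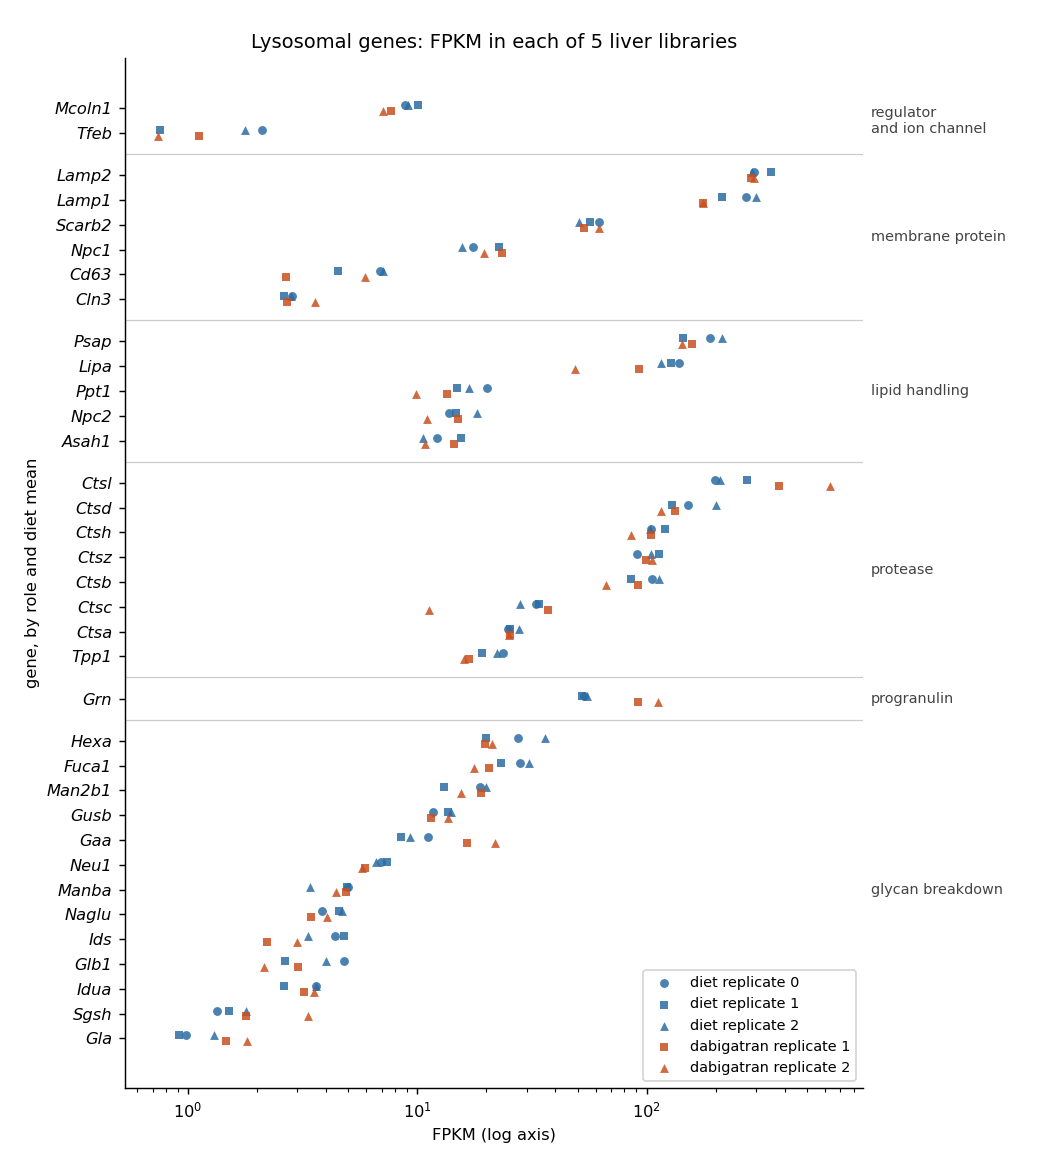
FPKM (log axis) of each of the 35 lysosomal genes, grouped by role and ordered by diet mean, with diet libraries in blue and dabigatran libraries in orange. Levels run from about 1 FPKM for Gla to over 300 for Lamp2, and for most genes the orange and blue points interleave.

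The 35 genes spanned a 291.9-fold range of diet means. Lamp2 was highest (311 ± 32.6 FPKM, SD, n = 3), followed by Lamp1, Ctsl, Psap, Ctsd, Lipa, Ctsh, Ctsz and Ctsb, all 9 above 100 FPKM. The order within the upper group is loose, since in 29 of the 34 neighbouring pairs of the whole order the diet libraries overlapped. Gla was lowest (1.07 ± 0.206 FPKM), with Tfeb and Sgsh just above it. The median gene of the 35 had 17.3 FPKM in the diet group, against 6.58 for the median tested gene. With dabigatran, Ctsl had the highest level of the 35 in both libraries, after ranks of 3, 2 and 4 in diet replicates 0, 1 and 2.

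**Figure D3:**
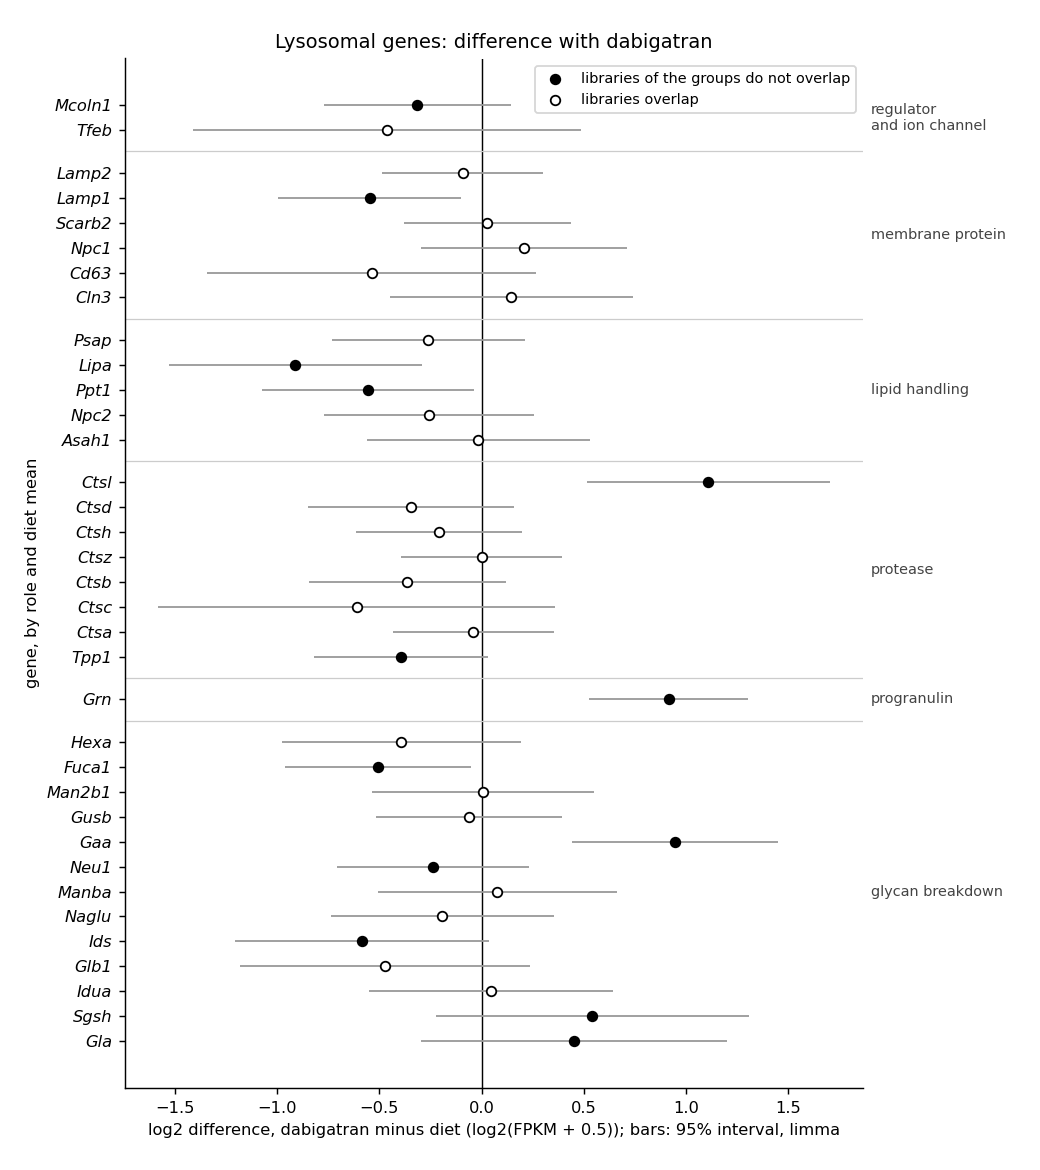
Log2 difference (dabigatran minus diet) of each lysosomal gene with its 95% interval from limma. Filled points mark genes whose libraries do not overlap between the groups. The intervals of Ctsl, Grn and Gaa lie above 0 and those of Lamp1, Lipa, Ppt1 and Fuca1 below it, before adjustment for the number of genes tested.

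Tfeb (chromosome 17, 47737030 to 47792419), the master regulator, was itself scarce. It had 2.10, 0.75 and 1.78 FPKM in diet replicates 0, 1 and 2, and 1.11 and 0.74 in dabigatran replicates 1 and 2. Diet replicate 1 was as low as the dabigatran libraries, so the groups overlapped, and the log2 difference was -0.46 ± 0.41 (SE, adjusted p = 0.618). These values rest on 3 to 11 recovered fragments in a library (or a multiple of these), so counting error is large. Mcoln1, which encodes the calcium channel TRPML1 that signals from the lysosome to TFEB, had 8.80, 10.1 and 9.10 FPKM in the diet libraries, against 7.70 and 7.12 with dabigatran. Both dabigatran values were the lowest, but the log2 difference of -0.31 had an interval from -0.77 to 0.14 (adjusted p = 0.479).

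Among membrane proteins, Lamp1 separated the groups and its close relative Lamp2 did not. Lamp1 and Lamp2 are heavily glycosylated proteins that line the inner face of the lysosomal membrane. Lamp1 (chromosome 8, 13159161 to 13175338) had 270.6, 212.4 and 299.1 FPKM in the diet libraries, against 176.9 and 176.2 with dabigatran. Every diet library lay above both dabigatran libraries, which were almost equal. The log2 difference was -0.55 ± 0.19 (SE), 0.685 of the diet level, with an interval from -0.99 to -0.10 and an adjusted p of 0.234. Behind these values stood 1404, 839 and 1500 fragments in the diet group, and 787 and 706 with dabigatran. Of its exonic bases, 9.31% overlap Grtp1 on the opposite strand. Lamp2, also the receptor of chaperone-mediated autophagy, had 295, 348 and 289 FPKM in the diet libraries, against 286 and 296 with dabigatran. Its groups overlapped, and the interval of its log2 difference ran from -0.49 to 0.30. Whether Lamp1 and Lamp2 differ in their response was not tested.

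The remaining membrane proteins showed no separation. Cd63, a tetraspanin of late endosomes and lysosomes, had 6.87, 4.51 and 7.10 FPKM in the diet libraries, against 2.67 and 5.93 with dabigatran. Its dabigatran libraries lay apart, 1 of them within the diet range, and 10.1% of its 50-base windows also occur in its pseudogene Cd63-ps, so its level is uncertain. Npc1, which passes cholesterol out of the lysosome, had 17.4, 22.8 and 15.7 FPKM in the diet libraries, against 23.4 and 19.5 with dabigatran (log2 difference 0.21 ± 0.22, SE). Scarb2, the receptor that carries glucocerebrosidase to the lysosome, had 56.5 ± 5.80 and 57.6 ± 5.87 FPKM (SD, n = 3 and n = 2). Cln3, a membrane protein lost in juvenile Batten disease, had 2.77 ± 0.121 and 3.14 ± 0.625 FPKM.

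All 5 genes of lysosomal lipid handling had negative log2 differences, from -0.02 to -0.91, with a median of -0.26. Lipa (chromosome 19, 34492318 to 34527474) encodes acid lipase, the enzyme that frees cholesterol and fatty acids from lipids delivered to the lysosome. It had 137.9, 127.4 and 116.1 FPKM in the diet libraries, against 92.9 and 48.6 with dabigatran. Both dabigatran libraries lay below all diet libraries, and replicate 2 lay far below replicate 1. The log2 difference was -0.91 ± 0.27 (SE), 0.532 of the diet level, with an interval from -1.53 to -0.29 and an adjusted p of 0.168. Dabigatran replicate 2 set most of this: leaving it out gave a log2 difference of -0.45 (adjusted p = 0.569), and leaving out dabigatran replicate 1 gave -1.37 (adjusted p = 0.0293).

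Ppt1 (chromosome 4, 122836242 to 122859175), which strips palmitate from proteins bound for degradation, had 20.2, 15.0 and 16.8 FPKM in the diet libraries. With dabigatran it had 13.5 and 9.84, below all diet values (log2 difference -0.56 ± 0.22, SE, adjusted p = 0.281). Psap, the precursor of the saposins that present sphingolipids to their hydrolases, had 189.9, 143.9 and 212.5 FPKM in the diet libraries, against 157.2 and 143.3 with dabigatran. Diet replicate 1 lay between the dabigatran libraries, so the groups overlapped. Npc2, the soluble partner that hands cholesterol to Npc1, had 13.8, 14.8 and 18.3 FPKM in the diet libraries, against 15.1 and 11.0 with dabigatran. Asah1, acid ceramidase, had 12.7 ± 2.49 and 12.6 ± 2.59 FPKM (SD, n = 3 and n = 2). Together the 5 genes summed to 374.0, 316.5 and 374.3 FPKM in the diet libraries, and to 293.1 and 223.5 with dabigatran, with no overlap. Psap and Lipa weighed most in these sums, and Lipa did not overlap on its own, so the sum is not a separate result.

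Of the 8 proteases, Ctsl alone had an unadjusted p under 0.05. Ctsl (chromosome 13, 64359337 to 64370890) encodes cathepsin L, a cysteine endopeptidase with a broad range of substrates. It had 198.6, 274.9 and 209.8 FPKM in the diet libraries, against 377.3 and 629.1 with dabigatran. Both dabigatran libraries were higher than every diet library, and diet replicate 1 was the highest of its group. The log2 difference of 1.11 ± 0.26 (SE) equals 2.16-fold, with an interval from 0.52 to 1.70 and an adjusted p of 0.101. With dabigatran replicate 2 left out it was 0.74 (adjusted p = 0.402), and with replicate 1 left out 1.48 (adjusted p = 0.0356). Fragments numbered 887, 935 and 906 in the diet group, and 1445 and 2171 with dabigatran, so counting error is small beside the difference between the dabigatran libraries. Of its annotated exonic bases, 26.8% overlap the predicted genes Gm49230 (same strand) and Gm47123 (opposite strand).

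The summed level of the 7 other proteases was 534.9, 527.4 and 601.4 FPKM in the diet libraries, against 508.6 and 426.3 with dabigatran. Ctsl made up 27.1%, 34.3% and 25.9% of the summed protease level in the diet libraries, and 42.6% and 59.6% with dabigatran. The share did not overlap between the groups, but neither did Ctsl itself, so this is not a separate result.

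Tpp1 (chromosome 7), tripeptidyl peptidase, had 23.8, 19.2 and 22.4 FPKM in the diet libraries, against 16.8 and 16.0 with dabigatran. The groups did not overlap (log2 difference -0.39 ± 0.19, SE, adjusted p = 0.346). Ctsb, the cysteine protease cathepsin B, had 105.9, 85.7 and 113.1 FPKM in the diet libraries, against 91.8 and 66.8 with dabigatran. Ctsd, the aspartic protease cathepsin D, had 151.0, 129.2 and 201.5 FPKM in the diet libraries, against 132.9 and 115.9 with dabigatran. For both genes diet replicate 1 lay below dabigatran replicate 1, so the groups overlapped. The predicted gene Gm49369 overlaps 34.4% of the exonic bases of Ctsd on the same strand. Ctsa, the carboxypeptidase that also protects Neu1 and Glb1 in a complex, had 26.0 ± 1.61 and 25.3 ± 0.310 FPKM (SD, n = 3 and n = 2). The interval of its log2 difference ran from -0.43 to 0.35. Ctsh, an aminopeptidase, had 110 ± 9.36 and 95.2 ± 13.6 FPKM, and Ctsz, a carboxypeptidase, 103 ± 11.1 and 103 ± 4.11.

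Ctsc was set apart by 1 library, and is described here because of that value. Cathepsin C activates the granule proteases of immune cells. Its gene had 33.1, 34.1 and 27.9 FPKM in the diet libraries, 37.0 in dabigatran replicate 1 and 11.3 in dabigatran replicate 2. The log2 difference was -0.61 ± 0.42 (SE, adjusted p = 0.518), 0.22 without dabigatran replicate 2 and -1.45 without dabigatran replicate 1 (adjusted p = 0.0321). The median and the sum of the macrophage and Kupffer cell markers were also lowest in dabigatran replicate 2, but single markers varied. Clec4f, Vsig4, Marco, C1qa, C1qb, Mrc1 and Fcgr1 were not lowest there, and Cd163 was highest there. The 17 of 19 markers tested lay at a median of -0.55 in that library on the log2 scale, and at 0.17 in dabigatran replicate 1. The 7 neutrophil markers found, most of them near 0, summed to 45.2 and 2.90 FPKM in dabigatran replicates 1 and 2. In diet replicates 0, 1 and 2 they summed to 6.44, 2.68 and 20.8. The part of either cell type in the values of Ctsc was not tested.

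Grn had the lowest adjusted p of the 35 genes. It encodes progranulin, a secreted glycoprotein that is sorted to lysosomes, where it is cut into granulins, and whose loss impairs lysosomal lipid breakdown. Grn (chromosome 11, 102430315 to 102437048) had 53.5, 52.4 and 54.7 FPKM in the diet libraries, against 91.8 and 112.0 with dabigatran. The diet libraries were nearly equal, and both dabigatran libraries stood well above them. The log2 difference was 0.92 ± 0.17 (SE), or 1.89-fold, with an interval from 0.52 to 1.31 and an adjusted p of 0.0676. Leaving out diet replicate 1 or dabigatran replicate 1 brought the adjusted p to 0.0470 and 0.0483, and leaving out any other library to between 0.265 and 0.313, while the log2 difference stayed from 0.77 to 1.06. The values rest on 215 to 288 fragments in the diet libraries, and on 424 and 466 with dabigatran. Among the sorting genes, Sort1, which encodes the progranulin receptor sortilin, had 2.21 ± 0.524 and 3.03 ± 0.979 FPKM (SD, n = 3 and n = 2), and Psap, whose product binds progranulin, is given above.

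**Figure D4:**
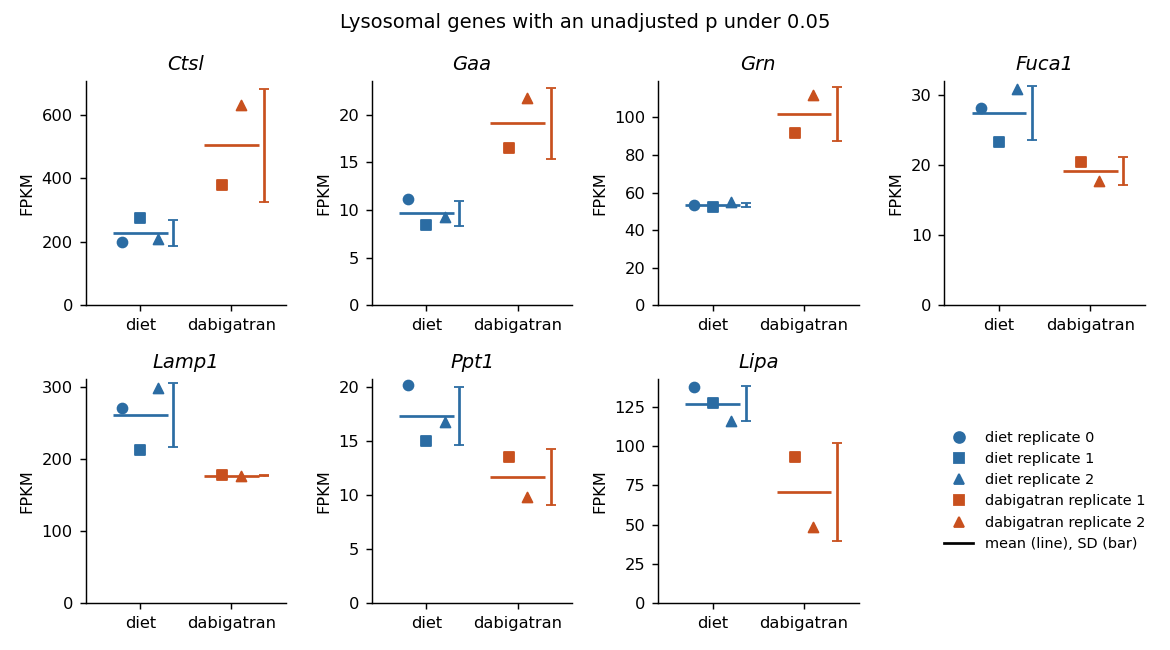
FPKM in each library for the 7 lysosomal genes with an unadjusted p under 0.05, with each group's mean (line) and SD (bar); axes start at 0. Ctsl, Gaa and Grn are higher in both dabigatran libraries than in any diet library, and Fuca1, Lamp1, Ppt1 and Lipa lower.

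Among the 13 enzymes of glycan breakdown, 6 had positive and 7 negative log2 differences, with a median of -0.06. Gaa (chromosome 11, 119267887 to 119285454), acid alpha-glucosidase, releases glucose from glycogen inside the lysosome. It had 11.1, 8.47 and 9.32 FPKM in the diet libraries, against 16.5 and 21.7 with dabigatran. Both dabigatran libraries exceeded all diet libraries, and the log2 difference was 0.95 ± 0.22 (SE), or 1.93-fold, with an interval from 0.44 to 1.45 and an adjusted p of 0.101. No exon of another annotated gene overlaps those of Gaa.

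Fuca1 (chromosome 4, 135920735 to 135940311), which removes fucose from glycoproteins, had 28.1, 23.3 and 30.9 FPKM in the diet libraries, against 20.5 and 17.7 with dabigatran. The groups did not overlap, with a log2 difference of -0.51 ± 0.20 (SE), an interval from -0.96 to -0.05 and an adjusted p of 0.266. Ids, the sulfatase that starts the breakdown of dermatan and heparan sulfate, had 4.39, 4.78 and 3.34 FPKM in the diet libraries, against 2.22 and 3.00 with dabigatran. These values did not overlap either, but the interval of the log2 difference ran from -1.21 to 0.04. Neu1, the lysosomal sialidase, had 6.98 ± 0.397 and 5.84 ± 0.133 FPKM (SD, n = 3 and n = 2), again with no overlap.

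Sgsh and Gla, at the bottom of the order of levels, were higher in both dabigatran libraries. Sgsh, which removes sulfate from heparan sulfate, had 1.55 ± 0.223 and 2.57 ± 1.10 FPKM (SD, n = 3 and n = 2). Its groups only just did not overlap, with 1.78 FPKM in the highest diet library and 1.79 in the lower dabigatran library, and its exons overlap Card14 on the opposite strand over 21.6% of their bases. Gla, which removes galactose from glycolipids, had 1.07 ± 0.206 and 1.64 ± 0.242 FPKM, on 5 to 10 fragments in a library. Neither had an unadjusted p under 0.05. The groups overlapped for the other 7 enzymes: Glb1, Gusb, Hexa, Man2b1, Manba, Naglu and Idua, the exoglycosidases that take galactose, glucuronic acid, hexosamine, mannose and related sugars from glycan chains. Their log2 differences ranged from -0.47 for Glb1 to 0.08 for Manba. Hexa had 27.8 ± 7.98 and 20.5 ± 1.10 FPKM, the widest diet SD of these, and Gusb 13.1 ± 1.19 and 12.5 ± 1.53.

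The rest of the lysosomal machinery also had no called gene. Of 36 other lysosomal enzymes tested, 1 was higher and 6 lower at an unadjusted p under 0.05 (19.4%, near the 16.0% of all tested genes), and the median log2 difference was -0.04. Siae, which removes acetyl groups from sialic acids, had 22.1, 14.5 and 18.5 FPKM in the diet libraries, against 7.99 and 5.70 with dabigatran (log2 difference -1.36 ± 0.25, SE, adjusted p = 0.0674). Pcyox1, prenylcysteine oxidase, had 41.9, 35.7 and 42.1 FPKM in the diet libraries, against 26.6 and 24.9 with dabigatran (adjusted p = 0.154). In both genes every dabigatran value was below every diet value.

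Of 30 other lysosomal membrane proteins tested, 3 were higher and 2 lower at an unadjusted p under 0.05. This was 16.7% of them, near the 16.0% of all tested genes, and the median log2 difference was 0.03. Sidt2, a lysosomal transmembrane protein, had 33.0, 32.0 and 28.2 FPKM in the diet libraries, against 52.7 and 58.4 with dabigatran (log2 difference 0.83 ± 0.17, SE, adjusted p = 0.0815). Mfsd1, a transporter of the lysosomal membrane, had 34.7, 28.8 and 34.5 FPKM in the diet libraries, against 20.8 and 18.3 with dabigatran (log2 difference -0.73 ± 0.18, SE, adjusted p = 0.120). The groups did not overlap for either gene, and their differences point in opposite directions.

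The V-ATPase pumps protons into the lysosome. Of its 15 subunits tested, 0 were called by limma, 0 were higher and 1 was lower at an unadjusted p under 0.05. This was 6.67% of them, beside 16.0% of all tested genes, and the median log2 difference was -0.06. Atp6v1e1 had 80.9, 86.0 and 70.6 FPKM in the diet libraries, against 48.1 and 62.6 with dabigatran (adjusted p = 0.244), and Atp6v0a1 had 8.66, 5.60 and 7.30, against 8.35 and 10.5. Among 17 genes of mannose 6-phosphate sorting, which brings new hydrolases to the lysosome, 1 was higher and 0 lower at that level (5.88%). The median log2 difference of these 17 was -0.11. The receptor gene M6pr had 41.5 ± 2.66 and 37.9 ± 1.95 FPKM. Gga3, an adaptor of the sorting receptors, had 1.34, 1.28 and 1.64 FPKM in the diet libraries, against 2.42 and 3.15 with dabigatran, and Ap1s1, a subunit of another adaptor, had 17.8 ± 2.59 and 12.6 ± 2.92.

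The TFEB family and the mTORC1 machinery at the lysosome had a median log2 difference of 0.06 over 19 tested genes. At an unadjusted p under 0.05, 1 was higher and 1 lower (10.5%, beside 16.0% of all tested genes). Fnip2, a partner of folliculin, had 4.24, 2.86 and 3.91 FPKM in the diet libraries, against 2.34 and 1.41 with dabigatran. Lamtor3, a subunit of the Ragulator scaffold, had 4.49, 6.39 and 7.36 FPKM in the diet libraries, against 7.86 and 14.5 with dabigatran. Tfe3, a relative of Tfeb, had 4.56 ± 0.954 and 5.50 ± 0.752 FPKM (SD, n = 3 and n = 2).

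**Figure D5:**
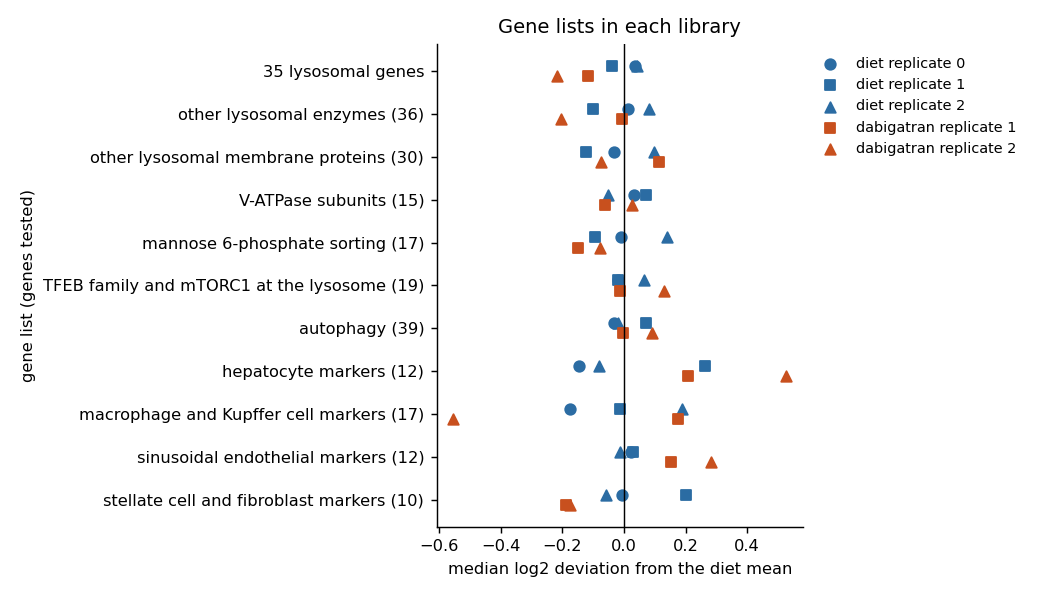
Median log2 deviation from the diet mean of each gene list in each library, with the number of genes tested in brackets. For the 35 lysosomal genes both dabigatran libraries (orange) lie below the diet libraries (blue), for hepatocyte markers dabigatran replicate 2 lies highest, and for macrophage markers it lies lowest.

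Markers of liver cell types differed between libraries beside these values. Hepatocyte markers lay at -0.15, 0.26 and -0.08 in diet replicates 0, 1 and 2, and at 0.21 and 0.53 in dabigatran replicates 1 and 2, with 5 of 12 (41.7%) higher at an unadjusted p under 0.05, beside 16.0% of all tested genes in either direction. Cps1, of the urea cycle, and Tat, of tyrosine breakdown, had the lowest p (log2 differences 1.93 and 1.99). The markers did not move as one: 10 of the 12 had positive log2 differences and 2 negative (Ttr -0.54 and Asgr1 -0.04). Among the positive ones, Apob, Cyp2e1, Alb and Serpina1c lay only between 0.03 and 0.16. Macrophage and Kupffer cell markers summed to 455 to 568.9 FPKM in the diet libraries, and to 588.4 and 396.7 in dabigatran replicates 1 and 2. Of the 17 tested, 1 was higher (Cd163) and 1 lower (Fcgr1) at an unadjusted p under 0.05 (11.8%). None of the 19 was listed at 0, and the Kupffer cell gene Clec4f had 61.1 ± 6.33 and 59.0 ± 1.74 FPKM (SD, n = 3 and n = 2). Of 12 sinusoidal endothelial markers, 3 were higher and 1 lower (33.3%, beside 16.0% of all tested genes). Lyve1 and Clec4g had the lowest p there (log2 differences 1.19 and -0.76). Of 10 stellate cell and fibroblast markers tested, 1 was higher and 2 lower (30%; lowest p: Col3a1 and Rgs5, -1.82 and 0.65). The groups did not overlap for 10 of the 12 endothelial markers (83.3%, 8 higher and 2 lower). This held for 6 of the 10 stellate cell and fibroblast markers (60%, 3 higher and 3 lower). For hepatocyte and macrophage markers tested it was 58.3% and 23.5%, beside 34.4% of all tested genes. Only 2 cholangiocyte markers (Spp1 and Sox9) and 3 neutrophil markers (lowest p: Csf3r and S100a9) could be tested, and none had an unadjusted p under 0.05. The part of any of these cell types in the values of the 35 lysosomal genes was not tested.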

How the data were processed

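RNA sequencing libraries of total liver RNA were made with a TruSeq kit, per the labels' protocols. The authors deposited 1 FPKM value per gene and library, the unit per the file headers. The submitters' processing notes list, without saying what each did, CASAVA, TopHat, TopHat2 2.0.4, Cuffdiff and R 2.15.1, and the builds mm10 and GRCm38. Not given in the sources used here: the annotation, the strand and the treatment of reads that match several genes. FPKM depends on the total of each library.

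A gene was tested where 3 or more of the 5 distinct libraries reached 1 FPKM (10247 genes), on log2(FPKM + 0.5), with limma 3.58.1 in R 4.3.3 (variance trend, group as the sole term, two-sided, Benjamini-Hochberg over all tested genes, threshold 0.05). All 35 lysosomal genes passed this filter. Fold changes are on that scale, which understates changes of low genes. The fit and the depth estimate were tested on simulated data. Replicates are separate samples by their labels, and only the series design speaks of mice, so p-values measure the spread between these libraries. An exact permutation test of 3 against 2 libraries cannot reach a p under 0.05, so none was run.

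Fragments of a gene were recovered as the lowest set of whole numbers with the ratios of its depth-corrected values (relative tolerance 1.2e-05), which exist for 79.3% of tested genes, for 0.9% after random shifts and for 29 of the 35 genes. The real numbers may be 2 or more times these, and they cover counting error only. Over these genes a library held 965901 to 1566154 fragments. Gene positions and overlaps are from GENCODE M21 (GRCm38), promoter windows from RefSeq (GRCm38.p6).

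The 35 genes and all lists were chosen with earlier results of these data known. Library values are given for the 3 genes of each role with the lowest p and for Tfeb, Mcoln1, Lamp1, Lamp2, Npc1, Npc2, Lipa, Ctsb, Ctsd and Ctsl, and from each other list the 2 genes with the lowest p are named. Clec4f, M6pr, Sort1, Tfe3 and Alb were added for their roles after their values were seen, and Ctsc for its value. Further macrophage and hepatocyte markers are named to show those that differ from the rest of their lists. Dabigatran replicate 0 was not analysed here. The alternatives tried were other pseudocounts, filters and scalings, no variance trend, a replicate block and leaving out each library.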

Additional observations from a re-analysis of the deposited data

How the results depend on the processing

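Of the 35 lysosomal genes, 25 kept the sign of their log2 difference under all alternatives run for them, and 10, all with small or library-dependent differences, did not. The number called among the 35 was 0 under both other pseudocounts, both other filters, both other scalings, without a variance trend and with the replicate block, and ranged from 0 to 4 when libraries were left out. With a filter of 5 FPKM only 26 of the 35 were tested. The median log2 difference of all 35 was -0.21, and ranged from -0.24 to -0.12 when libraries were left out. At the share called in the whole table less than 1 call among 35 genes would be made, so a count of 0 says little about stability. The number of called genes in the whole table was 44 by the reported fit, 23 with a pseudocount of 0.1, 0 without a filter on low values, 0 without a variance trend, 27 after quantile normalization, 13 with the replicate block, and 0 to 294 when libraries were left out (294 without diet replicate 1, 275 without dabigatran replicate 1, at most 1 without any other). At an unadjusted p under 0.05, limma gave 1640 genes in the reported fit, 1933 without the filter, 1562 without the variance trend, and 1107 and 1010 in the fits without diet or dabigatran replicate 2, which called 0. With so few libraries, calls in either direction rest on single ones, and genes at a few fragments, such as Tfeb and Gla, are limited by depth.

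Signs reversed for Asah1 after quantile normalization (0.00746), and for Ctsz (-0.0258) and Man2b1 (-0.0179) after centring libraries on their median. Ctsz also reversed with the replicate block (-0.0847). Diet replicate 0 has no same-numbered dabigatran library, so the block gave the same log2 differences as leaving that library out. When libraries were left out, differences ranged from -0.219 to 0.188 for Asah1, -0.0296 to 0.322 for Cln3, -0.0701 to 0.00952 for Ctsa, -1.45 to 0.22 for Ctsc, -0.0847 to 0.0707 for Ctsz, -0.183 to 0.0578 for Gusb, -0.0875 to 0.112 for Idua, -0.18 to 0.15 for Man2b1, -0.0843 to 0.162 for Manba and -0.0742 to 0.132 for Scarb2. The causes were not tested beyond the library left out. The groups share only replicate numbers: deviations of same-numbered libraries from their group means had correlations of -0.04 and -0.03 across genes for replicates 1 and 2.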

Other observations

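Genes of autophagy, the pathway that delivers cell contents to the lysosome, were measured beside the lysosomal genes. None of 39 passed limma's test, with 3 higher and 5 lower at an unadjusted p under 0.05 (20.5%, beside 16.0% of all tested genes), and the median log2 difference was 0.04. The libraries of the groups did not overlap for 19 of them (48.7%), 10 higher and 9 lower, beside 34.4% of all tested genes. Gabarapl1, an LC3-family protein that decorates autophagosomes, had 217.7, 212.4 and 264.8 FPKM in diet replicates 0, 1 and 2, and 117.4 and 118.5 in dabigatran replicates 1 and 2 (log2 difference -0.96 ± 0.17, SE, adjusted p = 0.0674). Both dabigatran libraries were well below all diet libraries. Atg2a, a lipid transfer protein of the growing autophagosome, had 5.66, 5.24 and 6.58 FPKM in the diet libraries, against 11.0 and 12.4 with dabigatran (log2 difference 0.95 ± 0.21, SE, adjusted p = 0.0902).

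Diet replicate 1 was the lowest of the diet libraries for 17 of the 35 lysosomal genes and the highest for 10. It lay on the dabigatran side of the other diet libraries for 18 of the 35 (51.4%), against 55.9% of all tested genes. The median coefficient of variation within the diet group was 14.5% for the 35 genes and 18.4% for all tested genes. The 35 genes also had the higher median level (17.3 against 6.58 FPKM), and spread was not compared at matched levels.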
